A study of Brassica rapa with 6 samples.

Results

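The sequences named miR9563 are 48 of the 1011 distinct small RNA sequences in a table from the petiole and leaf of Chinese cabbage (Brassica rapa). The petiole is the stalk that carries the leaf blade. They were taken by name: every entry whose name holds miR9563, upper or lower case, not followed by a further digit, with entries of the same sequence counted once. That gave 54 entries and 48 sequences, since 6 sequences were listed under a p5 and a p3 name with the same values. The plants were wild type and grown in a greenhouse, petiole and leaf were each represented by 3 small RNA libraries, and neither treatment nor age is given in the labels. The labels do not say whether the replicates came from separate plants, so a p-value measures only the spread between these libraries, which may be technical. The table holds no mRNA, so the tissue labels could not be checked against marker genes. In such bulk libraries, fewer cells of a type and less RNA per cell cannot be told apart.

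Plants make several classes of small RNA. A microRNA is cut by a Dicer-like enzyme from the stem of a single folded transcript, is most often 21 nt long, often starts with U, and guides the slicing or silencing of matching mRNAs. Small RNAs of 24 nt are mostly made by a different Dicer-like enzyme from double-stranded RNA of transposons and repeats, often start with A, and direct DNA methylation. miR9563 is a family described from Brassica rapa, and no target or role of it is stated in the labels or the table. Names are read here in the usual form of the authors' software: a and b are precursors, p5 and p3 are the sides of a precursor with no annotated mature form, 5p and 3p are annotated arms, L and R give bases added or lost at the ends, and ss gives substitutions as position, precursor base and observed base.

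Laid side by side, 40 of the 48 sequences were overlapping windows of a single short run, most of them with substitutions. Of the others, 6 lay on its opposite strand and 2 did not align to it. The 5 whose names carry no mark of any kind are shown because they overlap exactly and give the frame for the rest; capitals mark the seed, bases 2 to 8.
bra-MIR9563a-p5_4: gTTCTTAGcggaatataagaaccc
bra-MIR9563a-p5_5: tTAGCGGAatataagaacccg
bra-MIR9563a-p5_1: aGCGGAATataagaacccgtctct
bra-MIR9563a-p5_2: gGAATATAagaacccgtctct
bra-MIR9563a-p5_3: gGAATATAagaacccgtctctta
Joined through their exact overlaps, these 5 gave a run of 32 bases. Adding the most abundant sequence, bra-MIR9563b-p5_1ss5TC, which overlaps its end exactly, gave the following stretch of 42 bases, in which positions are counted from 1 at the 5′ end.
merged stretch: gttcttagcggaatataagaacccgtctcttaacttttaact
The stretch joins entries named for the a and the b precursor and was built from the table alone, so it need not exist as a single transcript.

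Of the 48 sequences, 46 aligned to the merged stretch without gaps over at least 16 bases with at most 3 mismatches, 40 on the same strand and 6 on the opposite strand. None of the 414 sequences outside the name that carry the name of a known family aligned by the same criteria. Names are given by sequence, so that result was largely fixed beforehand and is no background. Among the predicted miRNAs of the table, which carry no family name, 43 aligned (7.83%). The stretch was itself built from 6 of the aligned sequences. Undoing the substitutions written in the names placed 34 of the 48 exactly inside the 32-base run. Start positions were few. On the same strand 17 sequences started at position 7, 8 at position 1 and 5 at position 10, and the other 10 were spread over 8 further starts. The map of the sequences on the merged stretch shows this stacking.

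**Figure D1:**
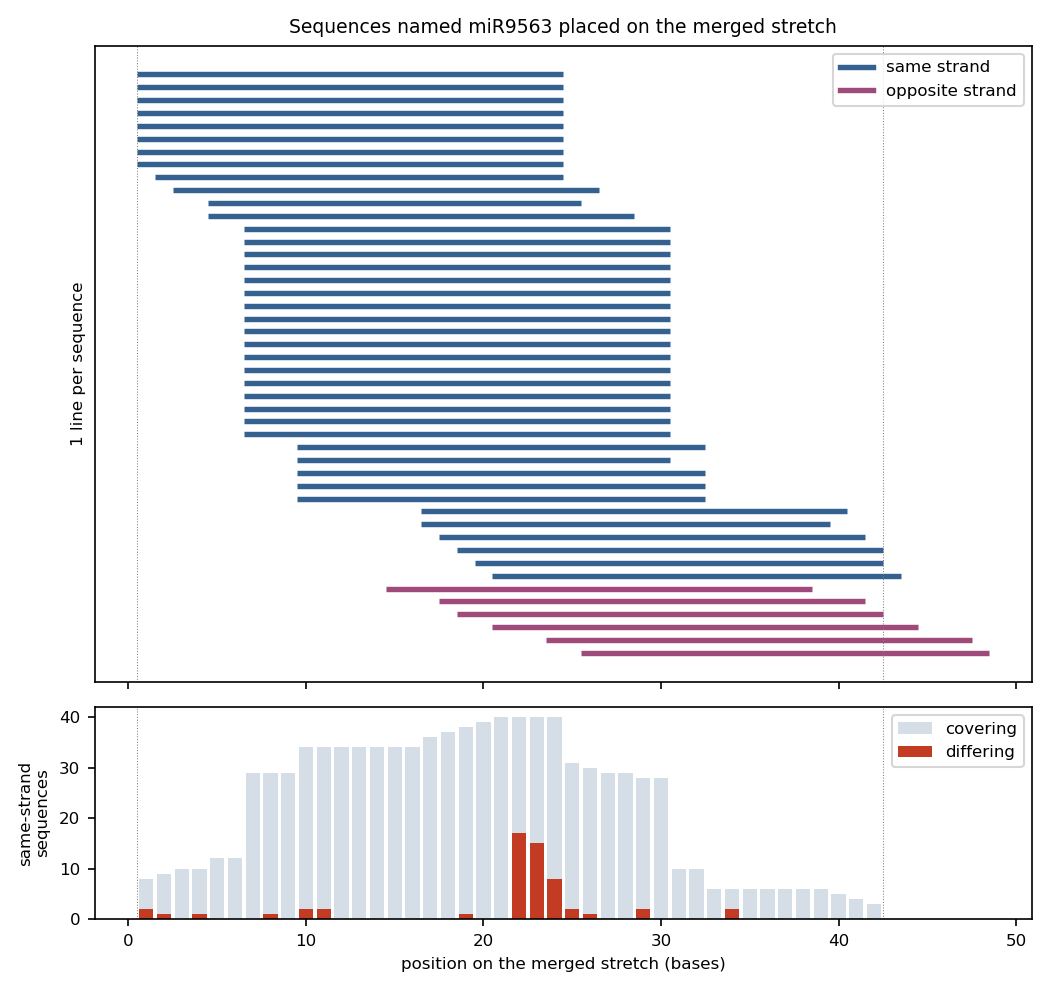
Top: each line is 1 of the 46 aligned sequences, drawn from its first to its last base along the merged stretch (x axis, bases), with same-strand sequences in blue and opposite-strand ones in purple; dotted lines mark the ends of the 42-base stretch. Bottom: for each position, bars give how many same-strand sequences cover it (grey) and how many differ from it (red), with peaks of 17, 15 and 8 differing sequences at positions 22, 23 and 24.

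Substitutions were the rule. Names with 2 substitutions were borne by 32 sequences, names with 1 by 11, and 5 had none; in all 43 with a substitution the observed base written in the name was the base of the sequence at that place. Among the 75 substitutions in the names, 27 were C-to-T, 15 C-to-A and 10 G-to-A. Against the merged stretch, the 40 same-strand sequences held 57 base differences, and 40 of these (70.2%) lay at positions 22 to 24, a run of 3 C. Of the 40 differences there, 24 were C-to-T, 15 C-to-A and 1 C-to-G. These counts depend on the reference. By the names, the b precursor holds T at position 23, where 12 of the C-to-T differences lie. The a precursor holds T at position 34, where 2 same-strand sequences differ from the stretch. At 28 of the 42 positions no same-strand sequence differed. Coverage was uneven, with 40 same-strand sequences at positions 22 to 24 and 3 to 10 at positions 31 to 42. Positions covered by few sequences could show few differences. Whether the substituted forms come from related copies in the genome or from sequencing error was not tested, and no genome was at hand.

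The 17 sequences that start at position 7 and end at position 30 show the pattern best, since they share length and frame and differ from each other by 1 to 4 bases. The unsubstituted form and the 6 most abundant others are printed with the bases that differ from the merged stretch in capitals.
bra-MIR9563a-p5_1: agcggaatataagaacccgtctct
bra-MIR9563a-p5_2ss2GA17CT: aAcggaatataagaacTcgtctct
bra-MIR9563a-p5_2ss16CT17CT: agcggaatataagaaTTcgtctct
bra-MIR9563a-p5_2ss17CA18CT: agcggaatataagaacATgtctct
bra-MIR9563a-p5_2ss16CA17CT: agcggaatataagaaATcgtctct
bra-MIR9563a-p5_1ss17CT: agcggaatataagaacTcgtctct
bra-MIR9563a-p5_2ss13GA17CA: agcggaatataaAaacAcgtctct
Over the 17, the mean normalized count over the 6 libraries ran between 4.57 and 50.4. The 6 substituted forms shown were picked as the most abundant and had means of 22.6 to 50.4; the other 10 had means of 4.57 to 13.0. The unsubstituted form lay between them at 18.5, a value that 4 other entries share.

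By length, 35 sequences had 24 nt, 9 had 23 nt and 4 had 21 nt. The first base was A in 26, G in 14 and T in 8, and none started with C. Among the 24 nt sequences 65.7% started with A, against 76.3% of the other 418 sequences of 24 nt in the table. By arm, 34 sequences were named p5, 9 p3, 3 5p and 2 3p, taking the first name where there were 2. Some p3 entries shared strand and start with p5 entries, so these labels do not separate parts of the merged stretch. The a precursor gave its name to 46 sequences and the b precursor to 2, which were the 2 most abundant. The 48 sequences held 24 different seeds. The most common seed, GCGGAAT, was shared by 14 sequences, TTCTTAG by 6 and GAATATA by 5. Among sequences outside the name, 5 also had the seed GCGGAAT.

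Values in the table are normalized counts. The step between values, read as 1 read, was worth between 0.904 and 0.959 in petiole and between 1.04 and 1.06 in leaf, and the whole table stood for 457195 to 474192 reads in petiole and 729592 to 771262 in leaf. The miR9563 sequences held 1030 to 1093 of these reads in petiole and 694 to 714 in leaf, where values shared by several sequences are counted for each of them. Levels of single sequences were low: the median of their means was 8.69 normalized counts, or 8.83 reads, and 3 of 48 reached a mean of 50. The lowest value above 0 was 2.5 reads in each library, so a sequence listed at 0 was not taken as absent.

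Detection was incomplete. Petiole libraries held 42, 42 and 43 of the 48 sequences and leaf libraries 33, 41 and 37. The share of the 48 listed at 0 was 10.4% to 12.5% in petiole and 14.6% to 31.2% in leaf, and among all 1011 sequences it was also lower in petiole, at 21.7% to 25.3%, against 29.9% to 32.9% in leaf. In all 6 libraries 28 sequences were above 0. The 3 petiole libraries shared 38 sequences and the 3 leaf libraries 28. Listed at 0 in every leaf library and above 0 in every petiole library were 3 sequences, all at low values, and the reverse was seen for 0 sequences. How often these patterns occur among all 1011 sequences was not counted, so the 3 are only listed. bra-MIR9563a-p5_2ss1GA22CT had 8.51, 5.76 and 5.43 in petiole. bra-MIR9563a-p5_1ss21CA had 4.73, 2.88 and 3.62 there. bra-MIR9563a-p5_2ss14CT20CT had 2.84, 3.36 and 2.26 there. These 3 did not pass the filter on low values and no fold is given for them. The plot of values by library shows that the lower part of the list lies at a few reads in each tissue.

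**Figure D2:**
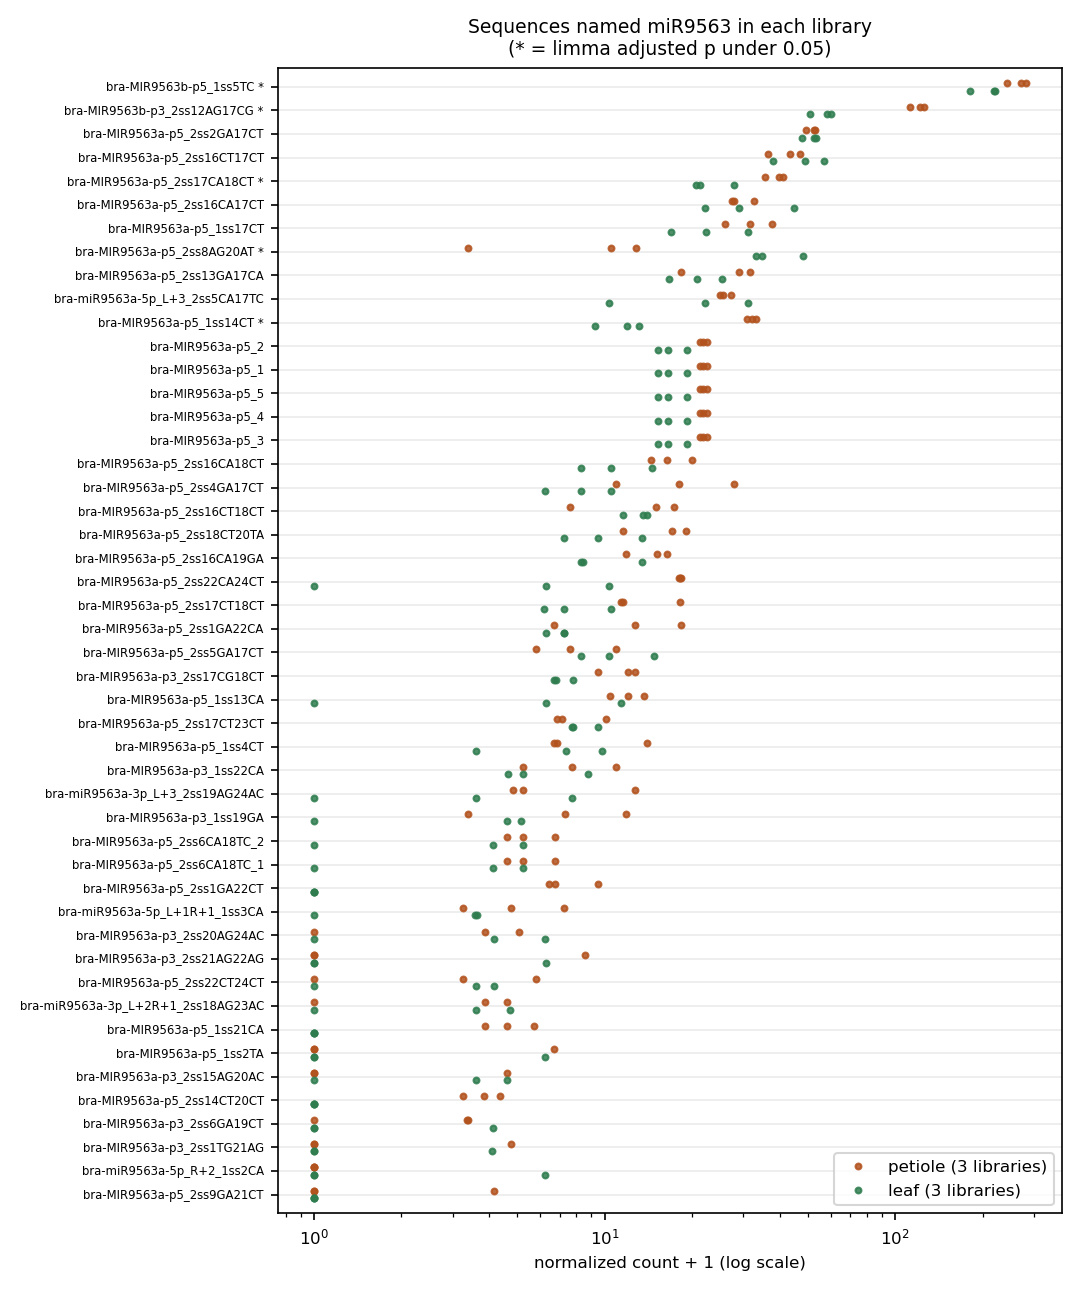
Normalized count plus 1 (x axis, log scale) of each of the 48 sequences (rows, most abundant at the top) in the 3 petiole libraries (orange) and 3 leaf libraries (green); points at 1 are values listed at 0 and a star marks the 5 sequences called by limma. The most abundant sequence lies between 240.5 and 281.7 in petiole and between 180.3 and 219.9 in leaf.

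Not every row was a separate measurement. The 5 unmarked sequences, though different in sequence and length, held the same values in all 6 libraries: 20.8, 21.6 and 20.3 in petiole and 15.6, 18.2 and 14.3 in leaf. A further pair, bra-MIR9563a-p5_2ss6CA18TC_1 and bra-MIR9563a-p5_2ss6CA18TC_2, which differ by 1 base in length, also held identical values. Counting such values once leaves 43 of the 48. The sources used here do not say how these entries came to hold the same values.

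Tissue differences were tested for every sequence of the table with a mean of at least 5, as log2(value + 1) with limma, and are petiole minus leaf. On that scale the added 1 shrinks the change of low sequences, while a single value listed at 0 can push it above the ratio of means. Of the 48 sequences 30 passed the filter and 18, with means of 0.527 to 4.87, did not. Adjusted over all 601 tested sequences, 5 of the 30 were called at an adjusted p under 0.05, 4 higher and 1 lower in petiole. Over all tested sequences 49.6% were called, 21.3% higher and 28.3% lower, beside 13.3% higher and 3.33% lower among the 30; the difference in share was not tested. The 25 that were not called had log2 differences between -0.46 and 2.17, 20 of them positive. The 2.17 was of a sequence listed at 0 in 1 leaf library. The median log2 difference of the 30 was 0.40, against 0.18 for all tested sequences. The 30, the 25 and the 20 all count the 5 unmarked sequences, which share 1 set of values, separately. With identical values counted once, 26 sequences were tested and the medians were 0.45 and 0.16.

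**Figure D3:**
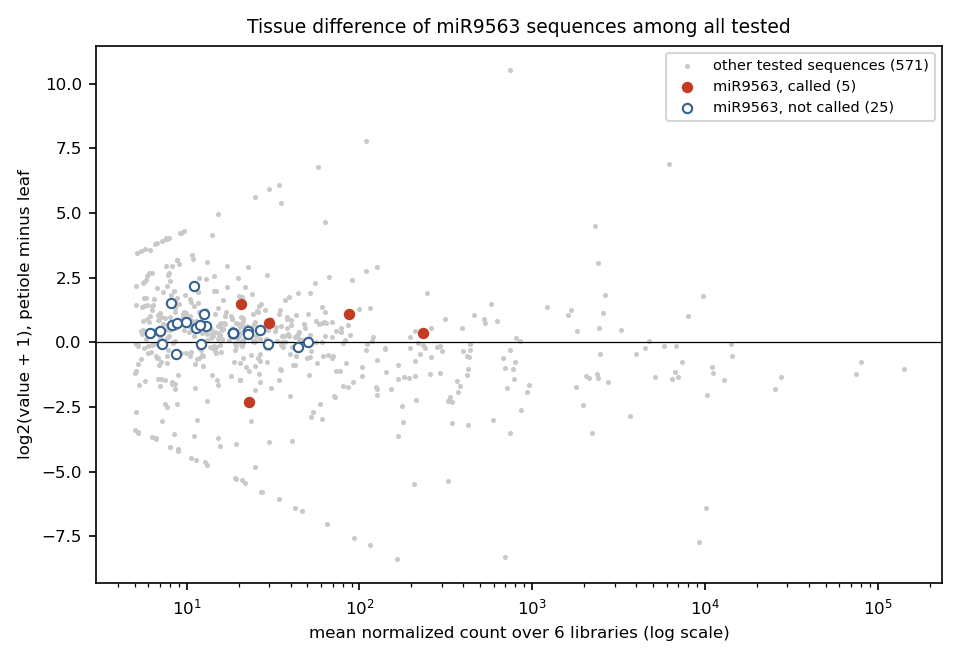
Log2 difference, petiole minus leaf (y axis, on log2(value + 1)), against the mean normalized count over 6 libraries (x axis, log scale) for the 601 tested sequences: grey points are the other 571, filled red points the 5 called miR9563 sequences and open blue points the 25 that were not called. Of the red points 4 lie above 0 and 1, at -2.31, below.

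The 5 called sequences are printed with the seed in capitals. The first is the most abundant of the name, the next carries the p3 name of the same b precursor, and the last is the single one that fell.
bra-MIR9563b-p5_1ss5TC: gAACCCGTctcttaacttttaact
bra-MIR9563b-p3_2ss12AG17CG: tAACTAAAaaagctaagaacc
bra-MIR9563a-p5_2ss17CA18CT: aGCGGAATataagaacatgtctct
bra-MIR9563a-p5_1ss14CT: gGAATATAagaactcgtctctta
bra-MIR9563a-p5_2ss8AG20AT: tAAAAAAGttaagaaccggtt

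The most abundant sequence, bra-MIR9563b-p5_1ss5TC, made up 26.7% of the summed count of the name in petiole and 27.9% in leaf. It had 281.7, 269.6 and 240.5 in petiole and 219.9, 180.3 and 217.1 in leaf. The tissues did not overlap. The petiole mean was 1.28 times the leaf mean, the log2 difference 0.36 ± 0.11 (SE), with limma's adjusted p at 0.0353. That call did not hold when petiole replicate 1 or 2, or leaf replicate 2 or 3, was left out (limma adjusted p between 0.0589 and 0.105), with a replicate block (0.0509), without limma's trend (0.0867) or without the filter on low values (just above 0.05). The size of the difference depended on scaling, at 1.23 after quantile normalization, which left the median of all sequences at 0.19, and 1.21 with equal library totals.

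The p3 entry of the b precursor, bra-MIR9563b-p3_2ss12AG17CG, rose in petiole, and all petiole values lay above all leaf values. Values were 111.5, 124.7 and 120.3 in petiole and 49.8, 57.3 and 59.3 in leaf. Means were 119 ± 6.70 in petiole and 55.5 ± 5.02 in leaf (SD, n = 3 each), a ratio of 2.14, with a log2 difference of 1.09 ± 0.11 (SE), and limma's adjusted p was 0.00024. This sequence has 21 nt, starts with T and is 1 of the 2 that did not align to the merged stretch. Its first bases, TAACT, are also the last bases of the stretch, an overlap shorter than the 16 bases required. A longer match lies on the opposite strand, also under 16 bases. Near its 3′ end, GCTAAGAAC is the reverse complement of the first bases of the stretch, GTTCTTAGC. Not aligning therefore does not place it apart from the run. The p5 entry had a ratio of 1.28; the difference between these ratios was not tested.

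bra-MIR9563a-p5_1ss14CT, of 23 nt, had the largest rise among the called sequences. It had 31.2, 32.1 and 29.8 in petiole and 8.3, 10.9 and 12.2 in leaf, with no overlap. The petiole mean was 2.97 times the leaf mean, with a log2 difference of 1.497 ± 0.21 (SE), and limma's adjusted p was 0.0011. It differs from the unmarked bra-MIR9563a-p5_3 by C23T alone, and that form was not called, at a log2 difference of 0.37 and a limma adjusted p of 0.144. The values of the unmarked form are the set that all 5 unmarked sequences share, so they may not measure that form alone. The difference between the 2 forms was not tested.

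bra-MIR9563a-p5_2ss17CA18CT, of the group starting at position 7, was also higher in petiole. Its values were 34.5, 38.9 and 40.2 in petiole and 27.0, 20.3 and 19.6 in leaf, which did not overlap. This gave a log2 difference of 0.75 ± 0.18 (SE), and limma's adjusted p was 0.0146. Without petiole replicate 3 it was not called (adjusted p of 0.0559).

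In the opposite direction, bra-MIR9563a-p5_2ss8AG20AT fell in petiole. It had 11.8, 2.4 and 9.49 in petiole and 32.2, 33.9 and 47.1 in leaf, so the highest petiole value lay well under the lowest leaf value. The petiole mean was 0.21 of the leaf mean, the log2 difference was -2.31 ± 0.52 (SE), and limma's adjusted p was 0.0111. Petiole replicate 2 was the lowest, and without it the log2 difference was -1.72, still called. Like bra-MIR9563b-p3_2ss12AG17CG it has 21 nt, starts with T and did not align to the merged stretch. These 2 sequences overlap each other over 17 bases with 1 difference, and they moved in opposite directions. Each passed the test in its direction on the deposited scale, with equal library totals and after quantile normalization. With equal totals, which moved the median of all sequences to 0.97, the log2 difference was 1.93 for bra-MIR9563b-p3_2ss12AG17CG, 2.30 for bra-MIR9563a-p5_1ss14CT, 1.58 for bra-MIR9563a-p5_2ss17CA18CT and -1.53 for bra-MIR9563a-p5_2ss8AG20AT.

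Within the group starting at position 7, 16 of 17 sequences were tested and 1 was called. The log2 differences of the 16 ran from -0.46 to 1.12 with a median of 0.42. The abundant forms of this group besides it were not called. bra-MIR9563a-p5_2ss2GA17CT had 48.2, 51.8 and 51.5 in petiole and 51.3, 46.9 and 52.4 in leaf, a log2 difference of 0.01 ± 0.12 (SE). bra-MIR9563a-p5_2ss16CT17CT had 42.54, 35.5 and 46.1 in petiole and 56.0, 47.9 and 37.1 in leaf, a difference of -0.17 ± 0.20. For bra-MIR9563a-p5_2ss16CA17CT the log2 difference was -0.07 ± 0.28, for bra-MIR9563a-p5_1ss17CT 0.47 ± 0.28 and for bra-MIR9563a-p5_2ss13GA17CA 0.32 ± 0.29. In these 5 sequences, whose limma adjusted p lay between 0.206 and 0.952, the petiole and leaf values overlapped. The annotated arm in the 10 most abundant, bra-miR9563a-5p_L+3_2ss5CA17TC, had 24.6, 23.98 and 26.2 in petiole and 30.1, 9.38 and 21.2 in leaf, a log2 difference of 0.43 ± 0.40 (SE). With equal library totals, which raise petiole values against leaf, these 6 sequences were called higher; after quantile normalization none of the 6 was.

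Petiole values lay wholly above leaf values in 13 of the 30 tested sequences, 5 of which share a single set of values, and wholly below in 1. Among all tested sequences 28.5% lay wholly above and 31.3% wholly below.

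Summed over the 48 sequences, the normalized count was 987, 988 and 988 in petiole and 741, 734 and 735 in leaf. Means were 988 ± 0.523 in petiole and 737 ± 3.99 in leaf (SD, n = 3 each), a ratio of 1.34 and a log2 ratio of 0.42. The most abundant sequence alone had a petiole SD of 21.2. The small SD of the petiole sum is therefore not read as the precision of a library. The sum was higher in petiole on the deposited scale, with equal totals (log2 ratio 1.28) and after quantile normalization (0.65). The sum holds the values shared by the 5 unmarked sequences, and those of the further pair, once for each sequence. With identical values counted once the log2 ratio was 0.425. No p is given for a sum over sequences chosen by name. As a share of everything in the table, the name held 0.228%, 0.220% and 0.230% in petiole and 0.0935%, 0.0913% and 0.0951% in leaf. The total of the table was lower in petiole (436475 ± 10506) than in leaf (789728 ± 15787), which enters that share.

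By length, the 24 nt sequences summed to 740 ± 4.48 in petiole and 573 ± 22.5 in leaf, 1.29 times higher in petiole. For the 4 sequences of 21 nt the sums were 169 ± 3.13 in petiole and 125 ± 11.2 in leaf. The 9 sequences of 23 nt had 79.5 ± 4.35 in petiole and 38.7 ± 9.19 in leaf, a ratio of 2.05. The 24 nt share of the sum was 75.1%, 74.4% and 75.2% in petiole and 80.8%, 76.1% and 76.4% in leaf, a difference of -2.84 ± 1.54 percentage points (SE). Leaf replicate 1 carried much of it, since without that library the difference was -1.32 points. These sums by length also hold shared values once for each sequence. With identical values counted once the difference in share was -3.28 points. All 3 petiole shares lay under all 3 leaf shares, and no test was made of this share.

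**Figure D4:**
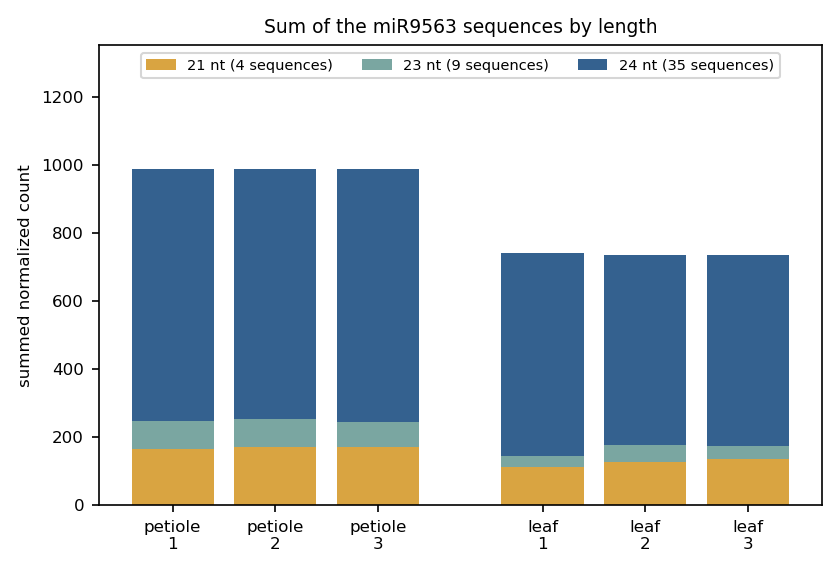
Summed normalized count (y axis) of the 48 sequences in each library, petiole on the left and leaf on the right, with the 4 sequences of 21 nt in yellow, the 9 of 23 nt in green and the 35 of 24 nt in blue. The petiole bars stand at 987 to 988 and the leaf bars at 734 to 741.

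By first base, sequences starting with A summed to 418 ± 21.4 in petiole and 329 ± 22.1 in leaf, those with G to 412 ± 22.8 in petiole and 292 ± 9.10 in leaf, and those with T to 159 ± 2.06 in petiole and 115 ± 16.1 in leaf. By start position, the group at position 7 summed to 353 ± 18.7 in petiole and 290 ± 18.8 in leaf, a ratio of 1.22. At position 1 the sums were 75.6 ± 9.68 in petiole and 41.7 ± 5.44 in leaf, and at position 10 they were 86.7 ± 2.57 in petiole and 47.8 ± 9.33 in leaf; the ratios were 1.81 at position 1 and 1.82 at position 10. The 6 opposite-strand sequences were scarce, with 16.1 ± 6.75 in petiole and 12.9 ± 0.663 in leaf, and none of them passed the filter on low values. The most abundant of them, bra-miR9563a-3p_L+3_2ss19AG24AC, had 4.25, 3.84 and 11.8 in petiole and 6.74, 2.61 and 0 in leaf.

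At the run of 3 C, the sequences that hold all 3 summed to 385 ± 27.5 in petiole and 296 ± 13.4 in leaf over 9 sequences. These 9 hold the most abundant sequence and the 5 unmarked ones, which share 1 set of values. The most abundant sequence alone had means of 264 in petiole and 206 in leaf. By its name, its middle C is a substitution for a T of the b precursor. The 9 with T in the middle and C on each side summed to 150 ± 5.19 in petiole and 109 ± 5.91 in leaf. The 10 with A in place of the first C summed to 84.9 ± 9.92 in petiole and 54.0 ± 5.35 in leaf. The ratios of these 3 groups were 1.30, 1.38 and 1.57. The other 10 triplets had 1 or 2 sequences each. Among these, TTC had 41.4 in petiole and 47.0 in leaf, a ratio of 0.880, ATC had a ratio of 0.914 and TCT of 1.05; TCC was listed at 0 in leaf, and the others had ratios of 1.27 to 2.20.

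The table also held sequences of the same run under other names. By the criteria used above, 43 further sequences aligned to the merged stretch, all of them predicted miRNAs, which the authors' software names PC; they were 7.83% of the predicted sequences. Of the 43, 18 lay on the same strand and 25 on the opposite strand, and 36 had 24 nt. On the opposite strand 8 of them covered positions 8 to 31, a window that none of the 6 opposite-strand miR9563 sequences shares, though all 6 overlap part of it. The one of these 8 that is complementary to the merged stretch without a mismatch, PC-3p-68320_69, is printed below the unmarked sequence that starts 1 base before its window, with seeds in capitals. The other 7 had 2 or 3 mismatches.
bra-MIR9563a-p5_1: aGCGGAATataagaacccgtctct
PC-3p-68320_69: aAGAGACGggttcttatattccgc
PC-3p-68320_69 had 18.0, 28.3 and 21.3 in petiole and 8.82, 9.90 and 13.2 in leaf, a log2 difference of 1.01 ± 0.27 (SE), and limma's adjusted p was 0.0207. The other 7 of this window, PC-3p-19990_195 being the most abundant, were tested and not called, with log2 differences of -1.17 to 0.37, 3 of them negative. The 8 together summed to 235 in petiole and 213 in leaf.

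Of the 43 sequences outside the name 28 were tested, and 7 were called higher and 1 lower, with a median log2 difference of 0.61. These are 25.0% higher and 3.57% lower, beside 21.3% and 28.3% over all tested sequences. The one that fell, PC-3p-844_2331, was also the most abundant.
PC-3p-844_2331: tTTATATTtcgctaagaaccc
It had 234.4, 245.6 and 252.3 in petiole and 613.1, 515.9 and 651.3 in leaf, a log2 difference of -1.27 ± 0.10 (SE), and limma's adjusted p was 6.4e-05. It has 21 nt and starts with T, as do the 2 called miR9563 sequences that did not align to the merged stretch. All 43 summed to 941 ± 27.3 in petiole and 1083 ± 80.2 in leaf, a ratio of 0.869. Without PC-3p-844_2331 the direction turned, and the other 42 summed to 697 in petiole and 489 in leaf, a ratio of 1.42. The name miR9563 had 1.34 with none of its sequences left out. PC-3p-844_2331 was left out after seeing its values, so the 2 ratios are not like for like.

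Calls in other groups of the table are given for comparison, with no test. Of 212 tested sequences of 24 nt outside the name, 37 were higher and 10 lower, with a median log2 difference of 0.54, and of the 23 tested miR9563 sequences of 24 nt, 2 were higher and 0 lower, with a median of 0.43. Predicted sequences of 24 nt had 26 higher and 5 lower of 177, with a median of 0.55. The other families with names from miR9552 to miR9569 had 6 higher and 4 lower of 14 tested, with a median of 0.68. All 24 nt sequences outside the name summed to 12011 ± 183 in petiole and 12555 ± 183 in leaf, a ratio of 0.957. The predicted ones had a ratio of 1.02 and those named miR9563 a ratio of 1.29. Such sums follow their most abundant sequences. By median log2 difference the other 24 nt sequences leaned more to petiole than the name did (0.54 against 0.43). The miR9563 sequences held 5.73% to 5.88% of the 24 nt sum in petiole and 4.28% to 4.48% in leaf.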

How the data were processed

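Small RNA libraries were made with a TruSeq small RNA kit from Trizol-extracted total RNA and sequenced on a HiSeq instrument, and reads of common RNA families and repeats were removed with ACGT101-miR, per the labels' protocols. Repeat removal can lower counts of repeat-derived sequences. The signal values deposited by the authors are normalized counts, per the file headers; the sources used here name no aligner, genome build or scaling. Below 60 reads, 71.5% to 76.9% of a library's values came out whole and 98.4% to 99.7% were multiples of 0.5 (tolerance 0.02 reads), so counts were not recovered and count models were not run. All 6 columns were used. The 1069 entries held 1011 sequences; repeats had identical values and were counted once. Between replicates, chi-square divided by its degrees of freedom was 3.38 to 8.62, above sampling noise.

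Sequences with a mean of at least 5 entered limma 3.58.1 (in R 4.3.3) on the log2(value + 1) scale, using its trend option and Benjamini-Hochberg adjustment over all 601 sequences, after a check on artificial data. Alternatives were other pseudocounts, filters, scalings and variance models, a replicate block, and each library left out. Members, lists and settings were chosen with earlier results of these data known; the merged stretch and the counting of identical values once were added after seeing the values. Named are the called sequences, the 10 most abundant, those listed at 0 in 1 tissue and present throughout the other, the unmarked ones, and the most abundant of each length and overlapping group; any other was picked after seeing its values.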

Additional observations from a re-analysis of the deposited data

How the results depend on the processing

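Scaling moved the counts most. With equal library totals 24 miR9563 sequences were called higher instead of 4. The 24 count the 5 unmarked sequences, which share 1 set of values, separately. Over all sequences 321 were called higher and 107 lower instead of 128 and 170 (75.0% of calls higher against 43.0%). The median log2 difference moved with the scaling, to 1.20 for the miR9563 sequences and 0.97 for all tested sequences. After quantile normalization the medians were 0.26 and 0.19, with 4 and 1 miR9563 calls. The 1 lower call was made under every alternative run. The log2 ratio of the sums was 1.28 with equal totals, 0.65 after quantile normalization, 0.38 over names with no substitution mark and 0.45 without the most abundant sequence, and it ran from 0.42 to 0.43 with each library left out. Over names with no substitution mark the difference in 24 nt share was 0, where those 5 sequences share 1 set of values, so that the share is the same in every library; with each library left out it ran from -3.67 to -1.32 points. With each library left out, 3 to 5 miR9563 sequences were called higher and 88 to 125 over all sequences, with 140 to 165 lower.

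Of the 5 calls, bra-MIR9563b-p5_1ss5TC was lost under 7 of 15 alternatives and bra-MIR9563a-p5_2ss17CA18CT under 1; the other 3 were called under all 15. Of the 11 named sequences that were tested and not called, 3 changed sign with single libraries left out and 8 kept it. These 8 include the 5 unmarked sequences, which share 1 set of values and are not separate measurements. For bra-MIR9563a-p5_2ss2GA17CT the log2 difference ran from -0.038 (without leaf replicate 2) to 0.042. It ran from -0.30 to 0.20 (without leaf replicate 2) for bra-MIR9563a-p5_2ss16CA17CT. For bra-miR9563a-5p_L+3_2ss5CA17TC it ran from -0.019 (without leaf replicate 2) to 0.77. With equal totals it was 0.76 for bra-MIR9563a-p5_2ss16CA17CT and 0.67 for bra-MIR9563a-p5_2ss16CT17CT, where the shift of all sequences was 0.97 in place of 0.18.

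Same-numbered libraries did not deviate together (correlations 0.073, 0.0067 and 0.0076), and not every library correlated best with its own number. With a replicate block 3 miR9563 sequences were called higher and 1 lower, and 117 and 163 over all sequences; the miR9563 call lost was bra-MIR9563b-p5_1ss5TC (adjusted p of 0.0509). Depth limits most single sequences, at a median of 8.83 reads a library.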
